A study of Gorilla gorilla with 12 samples.

Results

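Fibroblast cultures from 11 gorillas differed widely in the messenger RNA of cells in division, and 2 groups of cultures were defined by that difference. For each of the 11 arrays of cultures harvested under standard conditions, the log2 intensities of all 8 probe sets annotated to CCNB1, CCNB2, TOP2A, PTTG1 and UBE2C alone were averaged into a ranking score. The 4 arrays with the highest score form the high group and the 4 with the lowest form the low group, so 8 of the 12 arrays of the series enter the comparison. The other 3 standard arrays are called the middle arrays. The arrays measure transcript levels and not the rate of division, so the groups are named here by their score and not as fast or slow cultures.

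Each array holds total RNA of 1 fibroblast line from 1 normal gorilla, hybridised to a short-oligonucleotide array designed for human transcripts. The high group holds the lines called here male 1 (19 years), female 5 (30 years), male 5 (3 years) and female 2 (19 years). The low group holds female 1 (19 years), male 2 (26 years), female 4 (26 years) and the line labelled female 3 (35 years), and the middle arrays are male 4 (18 years), male 3 (24 years) and female 6 (2 years). Line male 2 was also harvested at 50% confluence, on an array that the ranking did not use. No line carries a treatment or an engineered allele, no source used here states the density at standard harvest, and 1 culture stands for each animal. Below, the 4 high values always follow the order male 1, female 5, male 5, female 2, the middle values the order male 4, male 3, female 6, and the low values the order female 1, male 2, female 4, female 3.

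Cells that commit to division pass from a resting or G1 state through S phase, in which licensed origins fire and DNA polymerases copy the genome, into mitosis, in which the spindle separates the chromosomes. Most genes of these steps are silent in resting cells and are switched on by E2F factors before S phase and by B-MYB and FOXM1 before mitosis, so their transcripts are abundant only while cells cycle. Cultured fibroblasts leave the cycle when they grow dense, lack growth factors or become senescent. In RNA of a whole culture, fewer dividing cells and less of a transcript per cell cannot be told apart.

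Between 40.1% and 48.8% of probe sets on the 11 standard arrays lay at 100, the lowest value in the table, and the arrays' median intensity ran from 106 to 148. The line labelled female 3 had a RPS4Y1 intensity of 2595. RPS4Y1, a ribosomal protein gene on the Y chromosome, lay between 2662 and 4363 in the lines labelled male and between 100 and 115 in the other lines labelled female. This line also has the lowest score of all, so some results are given with and without it. Donor age averaged 17.8 years ± 11.1 (SD, n = 4) in the high group and 26.5 ± 6.56 (SD, n = 4) in the low group (two-sided exact permutation test, p = 0.286). The share of probe sets at the floor was 44.2% ± 0.893 and 43.2% ± 2.79 (SD, n = 4 each), and the 3' to 5' ratio of GAPDH control probe sets was 1.06 ± 0.204 and 1.09 ± 0.200 (SD, n = 4 each). Of 7 such measures, labelled sex included, none had an adjusted p under 0.84, and 4 arrays against 4 cannot give a p below 0.0286.

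The ranking scores describe how the groups were chosen and carry no test. They were 10.37, 9.94, 9.88 and 9.54 in the high group, 9.42, 8.70 and 8.64 in the middle and 8.45, 8.41, 8.09 and 7.36 in the low group. The last array inside the high group thus stood at 9.54 and the first outside it at 9.42. At the lower edge, 8.45 was inside and 8.64 outside.

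CCNB2, a B-type cyclin that activates CDK1 at entry to mitosis, had deposited intensities of 1224, 671, 755 and 552 in the high group, 424, 269 and 237 in the middle and 208, 182, 190 and 134 in the low group. UBE2C, the ubiquitin-conjugating enzyme of the anaphase-promoting complex, had 3896, 2260, 1726 and 1441 against 909, 1033, 487 and 209. PTTG1, the securin that holds back separase, had 2556, 1638, 1636 and 2204 against 412, 879, 360 and 463. The groups did not overlap in any of these, as the choice of arrays favours. The 2 probe sets of CCNB1 differed by 2.14 and 2.22 on the log2 scale, and the 3 of TOP2A, the topoisomerase that untangles replicated chromosomes, by 1.39, 1.51 and 1.60.

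**Figure D1:**
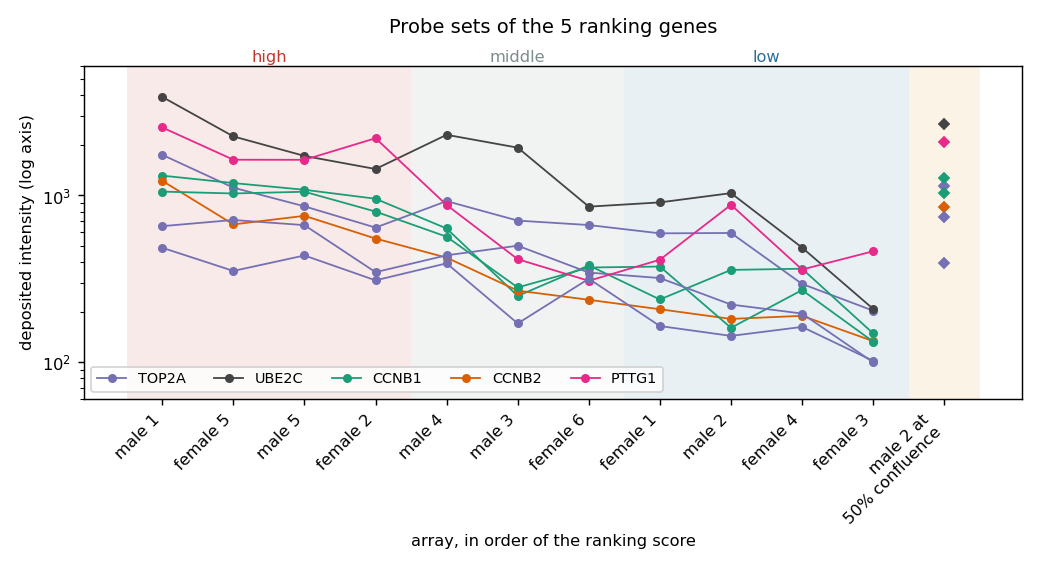
Deposited intensity (log axis) of the 8 probe sets of the 5 ranking genes on the 11 standard arrays in order of score, with the array of male 2 at 50% confluence (diamonds) at the right. Shading marks the high, middle and low arrays. UBE2C runs from 3896 in male 1 to 209 in the line labelled female 3, and the diamonds lie near the high group.

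With the ranking genes left out, 8 of 7527 tested probe sets were higher in the high group at an adjusted p under 0.05 (limma, Benjamini-Hochberg adjustment over all tested probe sets) and 1 was lower, which is 0.106% and 0.0133% of those tested. The 8 higher probe sets belong to PCLAF, HIRIP3, CDK1, BUB1B, KIF22, CKS1B, TPX2 and NCAPD3, and the lower one to HLA-F. Of these 9, 6 are members of the 8 cell cycle lists, and since the arrays were chosen by genes that move with these lists, nothing is read from that share. An unadjusted p under 0.05 was reached by 489 probe sets on the higher side and 365 on the lower side. Per gene, with the brightest tested probe set standing for it, the high group lay wholly above the low group in 233 of 5477 genes (4.25%) and wholly below it in 157 (2.87%).

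These calls were not stable to the lines used. No probe set was called without male 1, male 5, male 2, female 4 or the line labelled female 3. None was called when labelled sex or donor age was added to the model. With 1 array left out, the difference ran from 1.92 to 2.17 for BUB1B and from 2.14 to 2.71 for PCLAF. For the called HLA-F probe set it ran from −2.04 to −1.73. Beside those 0 counts, 795 probe sets had an unadjusted p under 0.05 with sex in the model and 665 with age.

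Across the 8 cell cycle lists, 138 of 148 tested genes were higher in the high group and the groups did not overlap in 70, all of them higher, beside 4.25% of all tested genes, and for the same reason nothing is read from that share. The median difference was 0.69 on the log2 scale, against 0.012 over all 5477 tested genes, of which 51.9% were higher. Without the line labelled female 3 the cell cycle median was 0.67. Where lines lie at the floor of 100, a difference is set in part by that floor and its size is not fully measured. The values below are normalised differences, high minus low, with no p for members of these lists.

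Among the proteins that license and unwind origins, all 15 tested members were higher, with a median of 0.98. MCM2, a subunit of the replicative helicase, had intensities of 1857, 1439, 1169 and 1215 in the high group, 1527, 3016 and 542 in the middle and 466, 601, 688 and 568 in the low group. CDC45, which joins the helicase when origins fire, had 406, 270, 202 and 261, then 553, 826 and 100, then 100, 161, 100 and 100. Neither gene overlapped between the high and low groups, and the differences were 1.28 ± 0.22 (SE, 4 arrays a group) and 1.35 ± 0.26. MCM3 and MCM4 were higher by 1.27 and 1.17.

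Of 27 DNA polymerases and fork proteins, 26 were higher, with a median of 0.69. POLA2, a subunit of DNA polymerase alpha, had 722, 889, 640 and 1036 against 145, 400, 281 and 255. Its difference of 1.71 ± 0.32 (SE) was the largest of this list, and the low line female 1 was its lowest. RPA3, which coats single-stranded DNA, LIG1, the ligase that joins Okazaki fragments, and FEN1, the nuclease that trims them, were higher by 1.41, 1.39 and 1.30, with 3 of the 4 low lines at the floor for LIG1. PCNA, the sliding clamp, was chosen after its values were seen. It had 3328, 3654, 2514 and 3190 against 1452, 1573, 1353 and 1885, a difference of 0.99 ± 0.21 (SE) with no overlap.

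The enzymes of nucleotide synthesis separated less as a list, with 20 of 22 higher and a median of 0.35, and 0.23 without male 1. TYMS, which makes thymidylate, had 2426, 1936, 1996 and 2130 against 770, 1160, 664 and 959, a difference of 1.26 ± 0.23 (SE). RRM1, the large subunit of ribonucleotide reductase, was higher by 1.30. Its small subunit RRM2 lay at the floor of 100 in all 4 low lines and at 381, 208, 186 and 151 in the high lines, so it was at least 2.17-fold higher. TK1, the salvage kinase, was higher by 1.30, and by 0.80 without the line labelled female 3.

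Of 21 G1/S cyclins and E2F regulators, 17 were higher, with a median of 0.46. CKS1B, a small subunit that binds CDKs and the SCF ubiquitin ligase, rose by 1.58 ± 0.23 (SE). Its probe set is among those called, which the choice of arrays favours, so nothing is read from the call. Its intensities were 1279, 904, 904 and 862 in the high group, 694, 1405 and 525 in the middle and 452, 335, 296 and 253 in the low group. CCNA2, cyclin A, had 1098, 1137, 644 and 480 against 281, 300, 263 and 100, a difference of 1.87 ± 0.39 (SE), and 1.51 without the line labelled female 3. FOXM1, the factor that drives mitotic genes, was higher by 1.27, and by 0.92 without the line labelled female 3.

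Of the mitotic kinases and checkpoint proteins, 18 of 19 were higher, with a median of 0.96, and 0.77 without the line labelled female 3. The high group lay wholly above the low group in 14, beside 4.25% of all tested genes. BUB1B, the checkpoint kinase that holds back anaphase, had 562, 516, 437 and 443 in the high group, 252, 567 and 235 in the middle and 180, 100, 116 and 100 in the low group. It rose by 2.01 ± 0.23 (SE), and 2 low lines lay at the floor. CDK1, the kinase of mitotic entry, had 900, 847, 887 and 621 against 332, 255, 189 and 195 and rose by 1.79 ± 0.23 (SE). TPX2, which activates Aurora A on the spindle, had 1769, 1028, 940 and 740 against 373, 313, 313 and 252 and rose by 1.79 ± 0.27 (SE). The groups stood apart in all 3, and TTK, another checkpoint kinase, was higher by 1.67 with 3 of the 4 low lines at the floor.

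Among the anaphase-promoting complex, cohesin and condensin, 15 of 16 were higher, with a median of 0.55. NCAPD3, a condensin subunit, rose by 1.37 ± 0.20 (SE), with 288, 341, 281 and 252 against 147, 100, 107 and 100. NCAPD2 of the other condensin was higher by 1.71, and by 1.35 without the line labelled female 3. CDC20, the activator of the complex, had 3583, 1959, 1642 and 1452 against 934, 780, 527 and 367, a difference of 1.69 ± 0.35 (SE). The 8 kinetochore and centromere genes were all higher, with a median of 0.65, and NDC80, which binds microtubules at the kinetochore, by 1.09 with 2 low lines at the floor.

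Of 20 genes in the list of spindle motors and cytokinesis, 19 were higher, with a median of 1.05. The high group lay wholly above the low group in 15, beside 4.25% of all tested genes. Not all are spindle or cytokinesis genes: the list also holds LMNB1, LMNB2, HMGB1, HMGB2, H2AZ1, MKI67 and CDKN3. Of these, all but HMGB1 are among the 15. KIF22, a chromosome-arm motor, lay at 441, 472, 341 and 260 in the high lines and at the floor in all 4 low lines. It was at least 3.69-fold higher. Its probe set is among those called, which the choice of arrays favours, so nothing is read from the call. The low lines, all at 100, show no spread as deposited, and the mean intensity of KIF22 rests on the other lines. KIF2C, which removes tubulin from microtubule ends, was higher by 1.54, and STMN1, stathmin, by 1.58. Without the line labelled female 3 they stood at 1.23 and 1.12. MKI67, the proliferation antigen, was chosen after its values were seen and had 335, 263, 188 and 187 against 123, 119, 156 and 100.

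**Figure D2:**
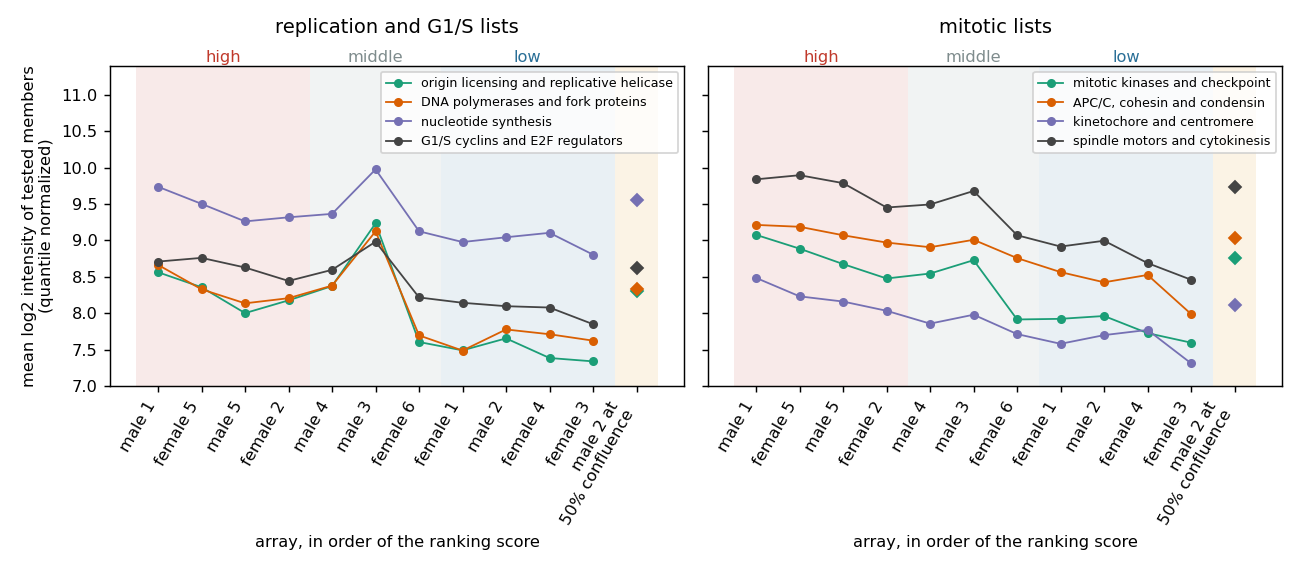
Mean quantile-normalised log2 intensity of the tested members of 4 replication and G1/S lists (left) and 4 mitotic lists (right) on each standard array in order of the ranking score, with male 2 at 50% confluence as diamonds. Male 3, a middle array, has the highest points of all arrays in each list at the left (9.23 for origin licensing) but not at the right.

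The mean level of the middle line male 3 lay above every high line in the 4 replication and G1/S lists and above none of the 4 maxima in the mitotic lists. Its mean level of the licensing list was 9.23, above the highest high line (8.56), and its mean level of the polymerase list was 9.12, again above the highest (8.66). Of the mitotic lists, it lay inside the range of the high group for kinases and checkpoint (8.73, high lines 8.48 to 9.08), for the anaphase-promoting complex, cohesin and condensin (9.01, high lines 8.97 to 9.21) and for spindle motors (9.68, high lines 9.45 to 9.90). Its kinetochore list stood at 7.98, under the lowest high line (8.03). Its MCM2, at 3016, was the highest of all 11 standard arrays. It is 1 array, with no replicate.

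Outside the cell cycle lists, 2 genes passed on the higher side. PCLAF, the factor that binds PCNA at the fork, had 2880, 3194, 2646 and 2547 in the high group, 2703, 3950 and 610 in the middle and 960, 484, 570 and 294 in the low group. It rose by 2.42 ± 0.32 (SE), a 5.34-fold difference (adjusted p = 0.0269, limma). HIRIP3, a histone-binding partner of the chaperone HIRA, had 425, 247, 355 and 307, then 351, 388 and 166, then 100, 154, 100 and 100, and rose by 1.61 ± 0.23 (SE; adjusted p = 0.0299, limma). Both groups stood apart, with 3 of the 4 low lines at the floor for HIRIP3. Genes outside the lists may also move with the ranking genes, so these p-values describe the separation of arrays already chosen.

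The next 10 genes by p on this side did not pass, with adjusted p from 0.0536 to 0.0826 (limma). APOBEC3B, a cytidine deaminase that restricts viruses, had 621, 427, 518 and 719 in the high group, 388, 361 and 331 in the middle and 102, 233, 100 and 215 in the low group, a difference of 1.93 ± 0.32 (SE). EZH2, the methyltransferase of Polycomb complex PRC2, had 653, 367, 339 and 381, then 458, 814 and 131, then 203, 190, 100 and 155, a difference of 1.49 ± 0.28 (SE). Neither overlapped, and without the line labelled female 3 they stood at 2.11 and 1.51. PARP2, a DNA break sensor with 2 low lines at the floor, USP1, a deubiquitinase of PCNA and FANCD2, and NASP, a histone chaperone, were higher by 1.06, 1.29 and 1.02. ANP32E, which removes the histone variant H2A.Z, was higher by 1.19, TMEM97, a sterol-regulated membrane protein, by 1.25, and RIN1, an effector of RAS, by 0.98. DDX39A, an RNA helicase of mRNA export, was higher by 1.06. OIP5, which helps to load centromeric histone, lay at the floor in all 4 low lines and was at least 2.07-fold higher.

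Genes that package and read chromatin were mostly on the same side. Of 23 tested chromatin modifiers, 22 were higher and none passed the test, with a median of 0.51, and 0.30 without male 1. SMARCC1, a core subunit of SWI/SNF remodelling complexes, had 871, 1028, 765 and 701 against 393, 437, 547 and 365, a difference of 0.96 ± 0.22 (SE), but a second probe set gave 0.06. Among nuclear proteins chosen after their values were seen, HMGN2 had 22064, 13663, 11850 and 12455 against 7761, 8282, 6368 and 4752, and the histone variant gene H2AZ1 had 1656, 3407, 3393 and 2000 against 1270, 963, 1018 and 793. LMNB1, lamin B1 of the nuclear envelope, had 550, 358, 503 and 320 against 209, 339, 100 and 100, and differed by 1.41 on normalised values. In H2AZ1 and HMGN2 the groups stood apart, while the deposited LMNB1 values overlapped in 1 pair of lines. H2AZ1 and LMNB1 are members of the spindle and cytokinesis list and are already counted there, so nothing is read from them here.

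Lists for the wider upkeep of a cell differed less, and none of their genes passed. Splicing factors and hnRNPs were higher in 35 of 42 with a median of 0.33, proteasome subunits in 26 of 29 with a median of 0.32, and DNA repair genes in 26 of 36 with a median of 0.31, and 0.18 without male 1. Nuclear-coded respiratory chain subunits were higher in 40 of 47 with a median of 0.23. Cytosolic ribosomal proteins were higher in 25 of 34, but their median was 0.04, and −0.01 without male 1. HNRNPA2B1, an RNA-binding protein, had 3771, 5718, 4662 and 4248 against 2844, 1712, 2667 and 2220, a difference of 0.98 ± 0.23 (SE). SRSF1, a splicing factor, had 945, 1016, 956 and 782 against 590, 470, 468 and 538, and PSMD12, a lid subunit of the proteasome, 290, 478, 493 and 389 against 227, 197, 161 and 292. BARD1, the partner of BRCA1, was higher by 1.23, the largest difference among the repair genes. The groups of these 4 genes stood apart on normalised values, beside 4.25% of all tested genes with the high group wholly above. The deposited PSMD12 values of male 1 and the line labelled female 3 crossed.

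**Figure D3:**
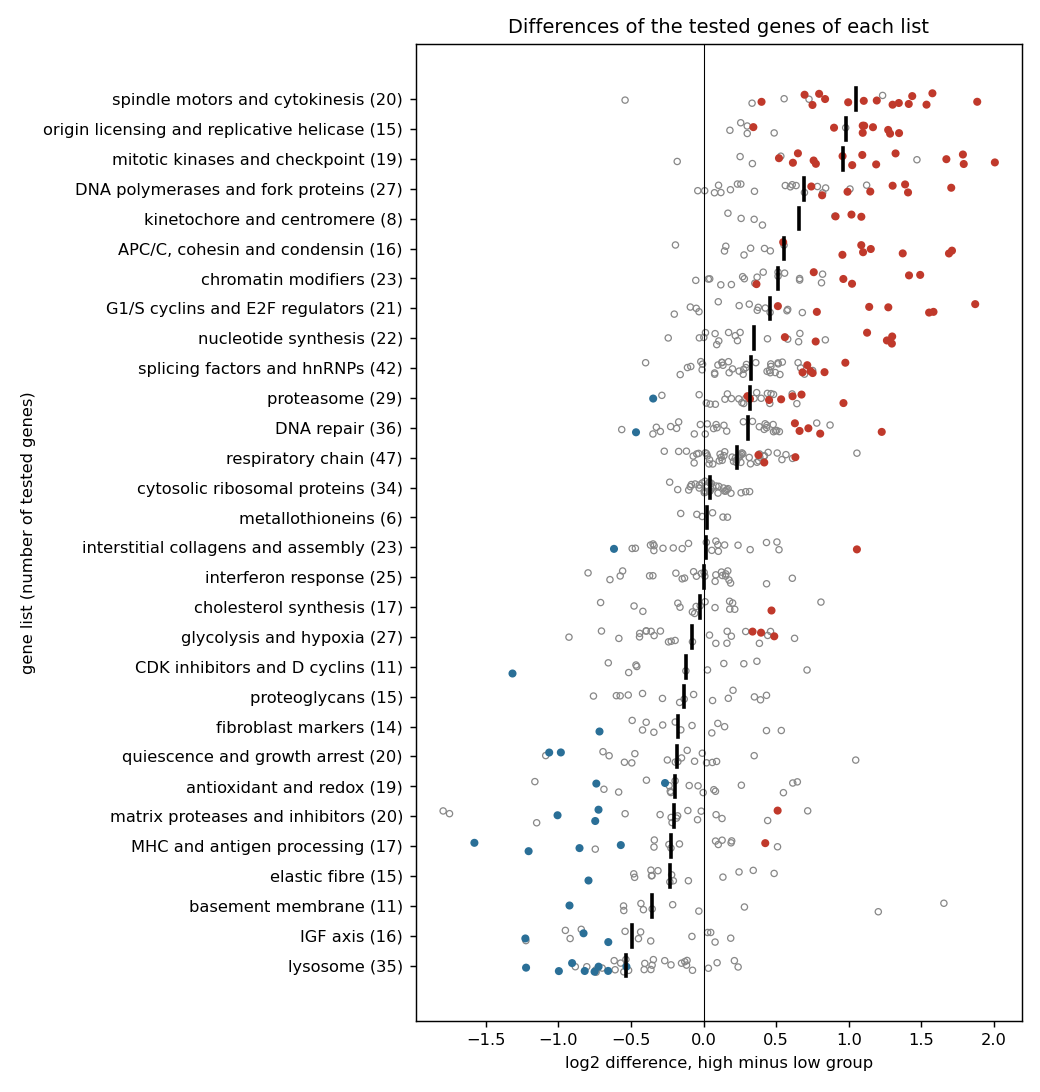
Log2 difference, high minus low group, of each tested gene in 30 lists, with the list median as a black bar and the number of tested genes in brackets. Filled points are genes whose groups do not overlap (red higher, blue lower in the high group). Lists run from lysosome (median −0.53) to spindle motors (1.05).

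On the lower side 1 probe set passed. It is annotated to HLA-F, a class I gene of the major histocompatibility complex, and had 167, 100, 100 and 151 in the high group, 163, 189 and 780 in the middle and 658, 496, 336 and 437 in the low group. It fell by 1.90 on the log2 scale (SE 0.27; adjusted p = 0.0299, limma). The groups stood apart, and the highest value of all belonged to the middle line female 6. A second HLA-F probe set, brighter than the first, had 2490, 1062, 1918 and 1567 against 2782, 3336, 2446 and 2838, a difference of −0.75 (SE 0.27; adjusted p = 0.334, limma) with overlap. Class I genes are near-identical, so these probe sets may read several family members, and the 2 HLA-F probe sets disagree in size. Other members of the list of 17 antigen-presentation genes, of which 10 were lower with a median of −0.22, did not pass. HLA-E stood at −1.58 and HLA-G at −1.21, and HLA-DMA, which loads class II molecules, at −0.85.

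The next 11 genes by p on the lower side had adjusted p from 0.0566 to 0.0960 (limma) and did not pass. VAT1, a vesicle membrane protein, had 628, 619, 682 and 864 in the high group, 1733, 568 and 1307 in the middle and 2312, 2671, 1272 and 2316 in the low group, a difference of −1.58 (SE 0.27). NUPR1, a stress-induced nuclear protein, had 1089, 1206, 1115 and 1128, then 1924, 542 and 2043, then 2425, 2628, 2848 and 1901, a difference of −1.09 (SE 0.19). The high lines lay between 619 and 864 for VAT1 and between 1089 and 1206 for NUPR1, and male 3 was the lowest of the 11 standard lines in each.

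SVEP1, a large adhesion protein of the matrix, had 301, 387, 849 and 869, then 2278, 1174 and 1365, then 1538, 2443, 2465 and 3811, a difference of −2.14 (SE 0.38). DPP4, the surface peptidase CD26, had 226, 314, 190 and 584, then 994, 1002 and 397, then 1203, 1094, 838 and 3061, a difference of −2.19 (SE 0.43). THBS2, thrombospondin 2, which holds back angiogenesis, had 254, 406, 228 and 367 against 693, 1255, 645 and 1196, a difference of −1.58 (SE 0.30). In SVEP1 and DPP4 the line labelled female 3 was the highest of all 11, and without it the differences were −1.93 and −1.82. CYBA, a subunit of NADPH oxidase, stood at −1.45, C2, a complement protease, at −1.43, and ULK2, a kinase that starts autophagy, at −1.35 and −0.19 on its 2 probe sets. CDK5R1, the p35 activator of CDK5, stood at −1.19 with the high lines at or next to the floor, while its other probe set gave 0.01, and KRT2, a keratin of upper epidermis, at −0.93 with no value above 238.

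**Figure D4:**
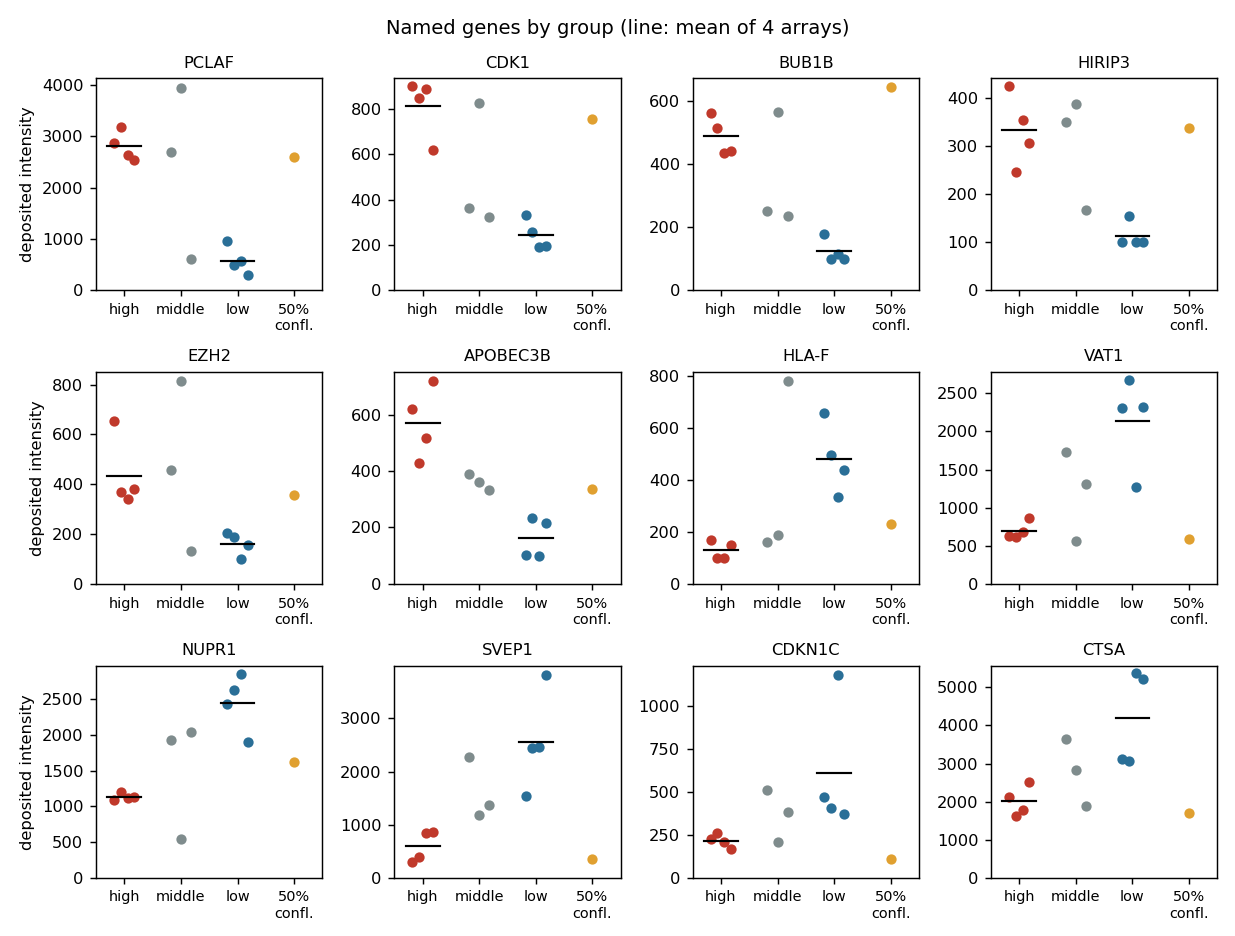
Deposited intensity of 12 named genes in the high (4), middle (3) and low (4) arrays and in male 2 at 50% confluence (1), with each axis from 0 and a line at the mean of the 4 arrays. PCLAF runs from 2547 to 3194 in the high group and from 294 to 960 in the low group, and VAT1 from 619 to 864 and from 1272 to 2671.

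Of 35 tested lysosomal genes, 31 were lower in the high group, with a median of −0.53, and −0.43 without the line labelled female 3. In 8 members the low group lay wholly above the high group on normalised values, beside 157 of 5477 tested genes (2.87%), and none passed the test. CTSA, the protective protein that stabilises galactosidase and neuraminidase, had 2130, 1633, 1784 and 2503 in the high group, 3634, 2818 and 1882 in the middle and 3108, 3070, 5374 and 5221 in the low group, a difference of −0.997 (SE 0.24; adjusted p = 0.133, limma). IDUA, which degrades glycosaminoglycans, had 314, 100, 148 and 354 against 492, 503, 475 and 417, a difference of −1.22 (SE 0.38). The groups stood apart in both.

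Other lysosomal genes whose groups stood apart were chosen after their values were seen. NEU1, the neuraminidase, had 322, 415, 423 and 605 against 666, 665, 857 and 714, and SMPD1, acid sphingomyelinase, 1436, 1243, 1809 and 1898 against 2173, 2514, 3507 and 3251. MAN2B1, acid mannosidase, and CTSF, cathepsin F, stood at −0.53 and −0.72. LAMP1, the most abundant membrane protein of the lysosome, stood at −0.66, and its deposited values overlapped. Probe sets of 1 gene disagreed in places, with −0.91 and 0.42 for LAMP2 and −0.82 and −0.21 for SMPD1. ASAH1, also in the list, stood at −0.88 with overlap. GRN, progranulin, and SQSTM1, the autophagy receptor p62, are not in the list and stood at −0.81 and −1.27. Both were chosen after their values were seen.

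Among 16 genes of the insulin-like growth factor axis, 12 were lower, with a median of −0.49, and −0.29 without female 5, and none passed. IRS2, an adaptor of the insulin and IGF receptors, lay at 100, 221, 100 and 100 in the high group, at 288, 140 and 305 in the middle and at 331, 290, 332 and 224 in the low group, a difference of −1.23 (SE 0.29). IGFBP4, a binding protein that holds IGF, had 16625, 13632, 18633 and 12489 against 24592, 28999, 27154 and 23767, and IGF2R, the receptor that clears IGF2, 707, 842, 787 and 871 against 1380, 1260, 1065 and 2100. The groups stood apart in all 3, beside 2.87% of all tested genes with the low group wholly above, and the last 2 genes were chosen after their values were seen. STC1, IGFBP5 and IGFBP2 had larger differences than those 2, at −1.22, −0.95 and −0.92, and their groups overlapped. A second IGFBP4 probe set gave −0.27.

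Of 20 quiescence and growth arrest genes, 15 were lower, with a median of −0.19, from −0.35 without female 4 to −0.11 without the line labelled female 3. GAS6, a ligand of the AXL receptor first found in arrested fibroblasts, had 3780, 3498, 4738 and 3558 in the high group, 4097, 2682 and 8679 in the middle and 5980, 8684, 11451 and 6605 in the low group, a difference of −0.98 (SE 0.22; adjusted p = 0.110, limma). CEBPD, a factor induced in growth arrest, had 710, 1175, 1196 and 804 against 3062, 2048, 1544 and 1658, a difference of −1.06 (SE 0.28). GAS1, a membrane protein of arrested cells, stood at −1.09 with overlap, and at −0.68 without the line labelled female 3. HES1 of the same list was higher by 1.05, with overlap. Of the 20, the groups stood apart in CEBPD and GAS6 alone, beside 2.87% of all tested genes with the low group wholly above.

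Of 11 CDK inhibitors and D cyclins, 5 were higher and 6 lower, with a median of −0.12. CDKN1C, the inhibitor p57, had 222, 260, 208 and 165 in the high group, 507, 208 and 384 in the middle and 471, 405, 1176 and 369 in the low group, a difference of −1.32 (SE 0.35; adjusted p = 0.166, limma). It was the single member of the 11 whose groups stood apart (2.87% of all tested genes did so with the low group above), and its 2 other probe sets, mostly at the floor, gave −0.44 and −0.46. CDKN2D, with the next largest difference of the list, was higher by 0.71, with overlap. CDKN1A, the inhibitor p21, was chosen after its values were seen. It had 4425, 4519, 4777 and 6643 against 5647, 8479, 5516 and 9856, a difference of −0.46 (SE 0.29) with overlap. Without the line labelled female 3 the CDKN1A difference was −0.28.

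**Figure D5:**
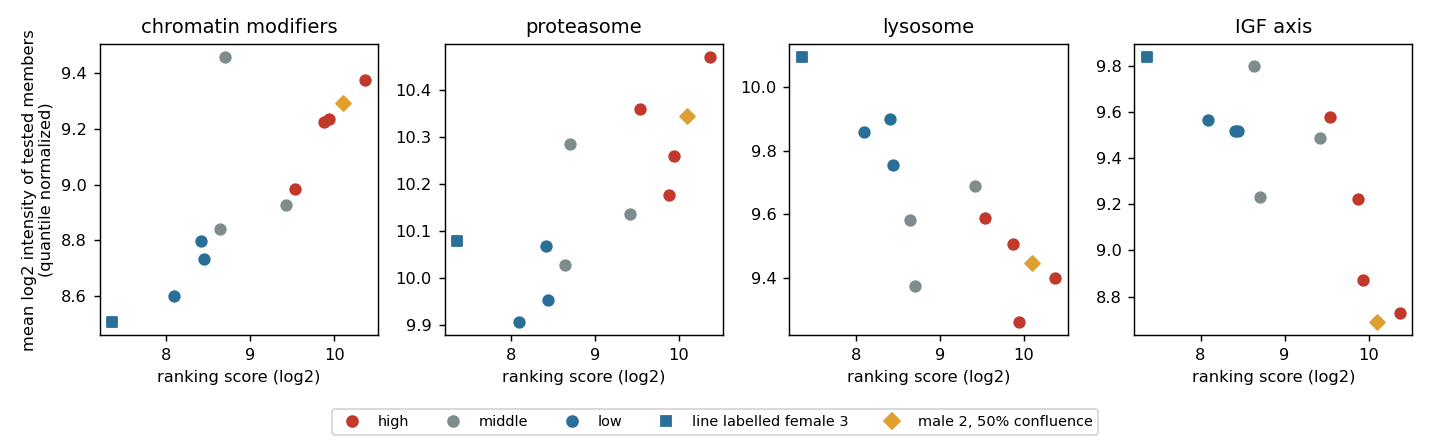
Mean quantile-normalised log2 intensity of the tested members of 4 lists on each array against its ranking score. The 4 high arrays lie between 9.26 and 9.59 for the lysosome list and the 4 low arrays between 9.76 and 10.09, with the line labelled female 3 (square) the highest.

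Of 20 matrix proteases and inhibitors, 15 were lower, with a median of −0.20, and −0.09 without the line labelled female 3, and none passed. TIMP2, which inhibits metalloproteases, had 2774, 1842, 2660 and 3780 against 4473, 7479, 4709 and 5709, a difference of −1.01 (SE 0.28). CTSK, the collagen-cutting cathepsin, had 860, 933, 1374 and 6044 in the high group, 11460, 7809 and 2860 in the middle and 3769, 6411, 3922 and 11479 in the low group, a difference of −1.79 (SE 0.61). The TIMP2 groups stood apart, while female 2 put the high group for CTSK inside the low range. Without the line labelled female 3 the CTSK difference was −1.43. MMP14 of the same list stood at −1.15 with overlap. Of 23 genes of interstitial collagens and their assembly, 12 were higher, with a median of 0.02. The largest difference among them was that of LOX, which crosslinks collagen, with 10180, 6711, 7285 and 7958 against 4216, 4186, 2396 and 4593, a difference of 1.06 ± 0.26 (SE; adjusted p = 0.135, limma). MMP3 reached 15064 in the line labelled female 3, and its difference was −1.75 with that line and −0.58 without it. The median was −0.35 over 11 basement membrane genes (3 higher), and −0.10 without female 5, −0.23 over 15 elastic fibre genes (4 higher), and −0.13 over 15 proteoglycan genes (6 higher), where it was 0.15 without male 2, 0.12 without male 1 and 0.08 without female 5. The largest difference of the basement membrane list went against its median: COL4A1, a type IV collagen chain, was higher by 1.65 with overlap. COL4A2 came next in size, also higher and with overlap. The mean level of that list was 9.39 in the high group and 9.42 in the low group. No gene of these lists passed the test with all arrays of both groups, while COL4A1 was called without female 5.

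Both groups carried fibroblast transcripts. All 14 fibroblast markers on the array were measured above the floor in both groups, their summed intensity ran from 108943 to 152509 in the high group and from 135358 to 169185 in the low group, and 9 of 14 were lower with a median of −0.18. FAP, the fibroblast activation protein, had 4674, 5042, 6323 and 5371 against 7719, 9268, 8965 and 9790, a difference of −0.72 (SE 0.20) with no overlap. Of the markers of other cell types, KRT5, KRT14, KRT19 and DSP of epithelium, VWF of endothelium, TYRP1 of melanocytes, PTPRC, ITGAM and LYZ of leukocytes and MYF5 of muscle precursors lay at the floor on all 12 arrays. Other members of these lists were measured: KRT8 and KRT10 reached 1662 and 3059, ENG, endoglin, 4860, and ACTC1, cardiac actin, ran from 181 to 18139. CD14, of monocytes, had 1673 in female 2, 100 to 109 in the other high lines and 213 to 419 in the low lines, and the part of these cells in the results was not tested. The summed intensity of the 12 leukocyte markers ran from 1624 to 3599 in the high group and from 2181 to 2605 in the low group. The 7 endothelial markers summed to 3558 to 4184 against 3023 to 5493, and the 7 melanocyte and neural crest markers to 757 to 1002 against 799 to 1056. The 13 epithelial markers summed to 4915 to 6923 against 4961 to 6468. The 16 skeletal muscle markers summed to 3752 to 21997 against 3675 to 11872.

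The other 15 gene lists examined had no member that passed. Their medians ran from −0.49 for cytokines and chemokines, which stood at −0.03 without the line labelled female 3, to 0.35 for MYC targets and ribosome biogenesis.

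The culture of male 2 at 50% confluence is 1 array set against 1 array, with no replicate and no test, and its reference, male 2 at standard harvest, is itself a low line, so both sets of differences share that array. Its ranking score was 10.10, against 8.41 at standard harvest. PCLAF had 2605 at 50% confluence and 484 at standard harvest, and BUB1B 646 and 100. MCM2 had 1219 and 601, and VAT1 589 and 2671. The median difference, 50% confluence minus standard, was 0.62 over the cell cycle lists, 0.46 over the chromatin modifiers, −0.50 over the lysosome list and −0.62 over the IGF axis, beside 0.69, 0.51, −0.53 and −0.49 for the high minus low groups. Other lists stood further apart in the 2 comparisons. The 50% confluence medians were 0.94 for metallothioneins, 0.45 for cholesterol synthesis, 0.34 for glycolysis and hypoxia, 0.17 for antioxidant genes, 0.15 for CDK inhibitors and D cyclins and −0.41 for the interferon response, beside 0.03, −0.02, −0.08, −0.20, −0.12 and 0.004. FEN1 and TK1 stood at −0.01 and −0.39 in this culture.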

How the data were processed

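The authors deposited 1 table of intensities in linear units for 12625 probe sets on 12 arrays, with whole numbers and a lowest value of 100. How probes were summarised and scaled, and why values stop at that floor, is not given in the sources used. Of the probe sets, 10961 are annotated to 1 gene symbol, 545 to several and 1119 are unnamed here, and none with several was named.

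Intensities were taken to log2 and quantile normalised over the 12 arrays with limma 3.58.1 in R 4.3.3. Intensities in the text are as deposited, and differences and folds other than lower bounds come from the normalised values. Groups were defined by the ranking score on deposited values, from measured values of the same arrays, so calls describe how other genes separate arrays already chosen. Tests covered the 7527 probe sets whose mean over the 11 standard arrays passed the 40th percentile. lmFit and eBayes gave differences of 4 arrays against 4 and two-sided p-values with Benjamini-Hochberg adjustment. Since every array is another animal, p-values set the group difference against the spread between lines within the chosen groups. The middle arrays were left out, so for genes that follow the score this spread can be narrower than among all standard lines. No line in these tests has a replicate culture, so line and culture state cannot be told apart. Precision is limited by how few arrays there are. A gene is represented in list counts by its brightest tested probe set. Groups called apart do not overlap on normalised values. Folds against a group wholly at the floor are lower bounds, the smaller of the deposited and the normalised fold.

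Named outside the cell cycle lists were up to 12 genes a direction. Those passing with the largest difference came first, then those with the smallest p whose groups did not overlap. Names within a list came from its 4 members with the largest difference, and not all 4 are given for each list. Names outside these rules are said to be chosen after their values were seen, other than RPS4Y1 and the cell type markers. The members of the groups and the lists were chosen with earlier results of these data known. Age, sex and array measures were compared by exact permutation over the 70 divisions of the 8 arrays, or Fisher's exact test. The fit was tested on simulated data with known answers. Those data were independent normal values with no floor, in groups not chosen by correlated genes. They therefore cannot show how the floor or the choice of arrays affects the calls. Alternatives covered normalisation, filter, floor, covariates, group size, ranking and each array left out.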

Additional observations from a re-analysis of the deposited data

Results flagged for a closer look

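In 19 of 264 sets of 4 values examined (7.2%), the highest or lowest line of a group stood far from the other 3 by Dixon's criterion, which chance alone meets in about 1 in 20 sets. The line labelled female 3 accounted for 5 of them. It was the lowest low line for TK1 (intensity 348, others 1267 to 1494), CCNA2 (100, others 263 to 300), NCAPD2 (137, others 371 to 396) and IDUA (417, others 475 to 503), and its mean level of the IGF axis list, 9.84, was above the 9.52 to 9.57 of the other low lines. Female 4 was the lowest low line for LOX (2396, others 4186 to 4593) and, after normalisation, for RAN (7554 as deposited, others 7292 to 7363), and the highest for LIG1 (163, others at 100). Male 1 was the highest high line for CKS1B (1279, others 862 to 904) and NCAPD2 (1635, others 791 to 840), male 5 for GAS6 (4738, others 3498 to 3780), and female 2 the lowest for CDK1 (621, others 847 to 900). Female 5 had the lowest mean level of the high lines for the basement membrane list (8.85, others 9.53 to 9.61) and the elastic fibre list (8.64, others 9.13 to 9.20). In 5 further sets a single line stood above 3 values at the floor of 100, namely HIRIP3 (154) and CDC45 (161) in male 2, TTK (131) in female 1, and CDK5R1 (101) and IRS2 (221) in female 5.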

How the results depend on the processing

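Over 22 alternatives, no difference of the 94 named probe sets changed sign, while 115 of 2062 values lost the call and 74 gained one. These probe sets were named for large or non-overlapping differences or after their values were seen, so the choice favours a kept sign. Where the groups do not overlap, leaving out 1 array cannot change the sign. The counts of probe sets called higher and lower, 8 and 1, became 15 and 3 with median scaling, 20 and 7 with the filter at the 60th percentile, 8 and 4 with a floor of 200 (of the 9 original calls, CDK1 and BUB1B were kept), 15 and 5 with array weights, 31 and 4 with a slope on the score over 11 arrays and 40 and 7 with 5 arrays against 5. They became 4 and 1 with 3 against 3, 5 and 1 with the ranking genes averaged by gene first, which put female 6 in place of male 2, and 3 and 0 with all 11 arrays in 3 groups. They were 0 and 0 with no filter (935 probe sets at an unadjusted p under 0.05, of 12550 tested), with labelled sex (795) and with donor age (665). Leaving out 1 array gave 0 to 5 higher and 0 to 1 lower, with 772 (male 1), 785 (male 5), 790 (male 2), 806 (female 3) and 825 (female 4) at an unadjusted p under 0.05 where the counts were 0. Genes with the high group wholly above numbered 475 with 3 against 3, 128 with 5 against 5 and 288 to 363 with 1 array left out, where fewer arrays ease the criterion. Those with the low group wholly above numbered 402, 32 and 230 to 271.

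Of 682 list medians, 654 moved by less than the SD between lines of the list's mean level, pooled over both groups. That criterion is wide, and a median near 0 can change sign within it. For example, medians ran from −0.31 to 0.15 for proteoglycans, −0.13 to 0.35 for metallothioneins and −0.19 to 0.16 for cholesterol synthesis. With the floor of 200 the medians were 0.57 (licensing), 0.16 (G1/S), 0.53 (mitotic kinases), 0.35 (kinetochore), 0.82 (spindle), 0.47 (all 8 cell cycle lists) and 0.14 (DNA repair). With the filter at the 60th percentile they were 1.19 (mitotic kinases), 1.09 (anaphase-promoting complex, cohesin and condensin), 0.91 (kinetochore), 0.91 (all 8 cell cycle lists), 0.45 (splicing) and −0.46 (CDK inhibitors and D cyclins), and with no filter 0.30 (kinetochore) and 0.12 (DNA repair). The chromatin and glycolysis lists stood at 0.36 and 0.088 with labelled sex, the interferon list at −0.077 on deposited values and 0.065 with 5 against 5, the CDK inhibitor list at −0.36 with 3 against 3, and the respiratory chain at 0.28 with median scaling, 0.17 with the ranking by gene and 0.17 with the slope. With 1 array left out the medians ran from 0.18 to 0.33 (DNA repair), −0.35 to −0.11 (quiescence), 0.30 to 0.56 (chromatin), 0.17 to 0.27 (respiratory chain) and −0.059 to 0.045 (interferon). The median of all tested genes stayed between −0.006 and 0.06. The floor of 100, which held over 40.1% of probe sets on each array, hides differences among dim genes, and the causes of these shifts were not tested. No paired analysis was possible because each line comes from another animal and the groups are ranked arrays with no shared replicate numbers.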

Other observations

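Of the genes of transport through the nuclear pore, 4 were chosen after their values were seen, from no fixed list and with no count of the others. RAN, the GTPase that sets the direction of transport, had 12349, 11735, 10557 and 11054 in the high lines and 7292, 7363, 7554 and 7318 in the low lines. CSE1L, which returns importin alpha to the cytoplasm, had 965, 656, 561 and 608 against 347, 370, 417 and 340. XPO1, the export receptor, and KPNA2, an importin alpha, differed by 0.66 and 1.07 on the log2 scale. In all 4 genes the groups stood apart, as the choice favours, beside 4.25% of all tested genes with the high group wholly above. None of the 4 had an adjusted p under 0.05 (limma).

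Several single genes with large differences belong to no list named above and did not pass the test. EPAS1, the hypoxia factor HIF-2 alpha, had 424, 492, 336 and 1105 in the high lines, 2883, 1101 and 1639 in the middle lines and 1681, 4013, 1196 and 3109 in the low lines, a difference of −2.09 (SE 0.45; adjusted p = 0.0989, limma). DHRS3, which reduces retinal, had 833, 1092, 1295 and 1913 against 4320, 2873, 7143 and 2229, a difference of −1.59. CYP27A1, the sterol hydroxylase, lay at the floor in all 4 high lines and at 145, 325, 356 and 682 in the low lines, at least 3.18-fold higher there. The groups stood apart in all 3 genes, beside 2.87% of all tested genes with the low group wholly above. The 3 were chosen after their values were seen, which favours this.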
